A study of Mus musculus with 7 samples.

Results

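The clustered protocadherins are a family of cell-surface cadherins encoded side by side on mouse chromosome 18. They were taken here as every protein-coding gene whose GENCODE symbol starts with Pcdha, Pcdhb, Pcdhga, Pcdhgb or Pcdhgc, which gave 57 of the 52636 genes in each count file: 14 alpha, 22 beta and 21 gamma genes. RNA of dorsal midbrain tissue from 3 control mice and 4 conditional knockouts of Brn3b (cKO) was sequenced with polyA selection and strand-specific paired-end libraries, to ask which transcripts depend on Brn3b (Pou4f2), a POU-domain transcription factor of midbrain and retinal neurons. The deposited labels call the mice only Heterozygote (controls here) and Homozygote (cKO here), and the alleles are taken from the methods of the study. By these, controls carried a conditional Brn3b allele over a wild-type allele, and cKO mice carried a conditional allele over a null allele. Both groups carried En1-Cre, which is active in the embryonic midbrain and hindbrain, so the controls were heterozygous for Brn3b in the Cre domain and the germ line null allele was found only in cKO mice. The controls were A2 and A6, aged postnatal day 4 (P4), and A4, aged P3. The cKO mice were B1 and B8, aged P4, and B7 and B9, aged P2, an age that no control had. The labels do not say whether the mice came from separate litters.

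Each alpha or gamma protein is made from a single large variable exon spliced to 3 short constant exons that all genes of the same cluster share. Beta genes have no constant exons, and each is a single exon with a promoter of its own. Individual neurons switch on small and partly random sets of these promoters, whereas the C-type genes at the ends of the alpha and gamma clusters follow other rules, and several of them are used broadly. Promoter choice depends on DNA methylation and on looping by CTCF and cohesin to distant enhancers. The proteins bind their own kind on neighbouring membranes, and they are known for dendrite self-avoidance, axon tiling and the survival of interneurons, including those of the spinal cord and retina.

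The targeted gene followed the labels in every library. Brn3b was at 45.8 to 47.4 CPM (library size adjusted by TMM factors) in controls and at 9.65 to 11.6 CPM in cKO mice, and it fell by 2.16 on the log2 scale (standard error 0.132), with a Benjamini-Hochberg adjusted p of 5.66e-04 in the quasi-likelihood test of edgeR. Depth ranged from 23588248 counts on genes in A2 to 87572085 in B9. B8 had the lowest limma-voom quality weight, 0.167, against 0.857 to 2.89 in the other libraries. The markers of dorsal midbrain summed to 1006 to 1121 CPM in controls and 955 to 1478 CPM in cKO mice, with the lowest sum in B8, and those of the cortex and hippocampus to at most 62.1 CPM in any library. In whole tissue, fewer cells of a type and less RNA per cell cannot be told apart.

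On GRCm38 the alpha genes span 36930184 to 37187661 of chromosome 18, the beta genes 37264938 to 37524479 and the gamma genes 37661793 to 37841873, all on the plus strand. The genes differ in how much of their exon sequence is theirs alone. All 22 beta genes are annotated as a single exon block, and 20 share no exonic base with another gene on the same strand. The exceptions are Pcdhb21 and Pcdhb22, which overlap at their ends and keep 90.33% and 93.12% of their bases to themselves. In alpha genes the unshared part is 8.56% (Pcdha4) to 61.13%, and in gamma genes 33.21% (Pcdhga4) to 68.53% (Pcdhgb5). Read pairs that touch the constant exons fit several alpha or several gamma genes, and read pairs that fit several genes made up 2.61% to 4.47% of all read pairs. Sequence repeats within the beta cluster are small, with 0% to 7.73% of a beta gene's stretches of 100 bases also found in another member. Counts of beta genes therefore stand for single genes more closely than those of alpha and gamma genes, and the families are given apart. In the alpha cluster 2 gene identifiers carry the symbol Pcdha11, and they are told apart here by identifier. Of the 57 genes, 56 had enough counts to be tested. Pcdhb1, the first beta gene, was not tested, with 4, 0 and 4 counts in controls A2, A4 and A6 and 10 or fewer in each cKO library.

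Summed over its genes, each family was higher in B1, B7 and B9 than in all controls, and B8 lay with the controls. The alpha genes summed to 39.1, 27.0 and 33.8 CPM in controls A2, A4 and A6, and to 101, 116, 33.4 and 93.1 CPM in cKO mice B1, B7, B8 and B9. The gamma genes summed to 179, 128 and 169 CPM in the controls and to 364, 386, 167 and 383 CPM in the cKO mice, given in the same order throughout. In both families B8 was inside the range of the controls. The beta genes summed to 183, 161 and 169 CPM in the controls and to 255.5, 313.5, 155.5 and 278 CPM in the cKO mice, so B8 was the lowest of the 7 libraries. Relative to the control mean, the sum over alpha genes was 2.80-fold to 3.48-fold in B1, B7 and B9, that over gamma genes 2.30-fold to 2.43-fold and that over beta genes 1.50-fold to 1.84-fold. In B8 these ratios were 1.00 for alpha, 1.05 for gamma and 0.911 for beta genes. The clustered genes together had 9657 to 12641 counts in control libraries and 14453 to 64167 in cKO libraries.

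**Figure D1:**
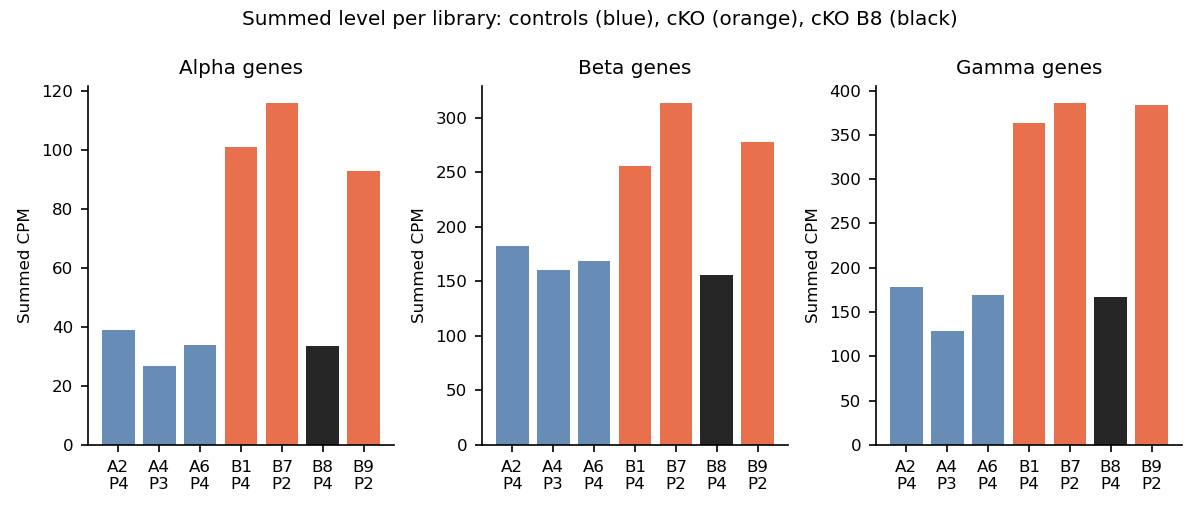
Summed CPM of the alpha, beta and gamma genes in each library, with control libraries in blue, cKO libraries in orange and the cKO library B8 in black, and the age of each mouse under its name. B1, B7 and B9 stand above all controls in the 3 panels, while B8 is within the controls for alpha and gamma genes and under them for beta genes.

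With edgeR and all 7 libraries, 0 of the 56 genes tested passed an adjusted p of 0.05, where 0.00458% of all genes tested passed in either direction. The lowest adjusted p of any member was 0.138 in this test. At an unadjusted p under 0.05, 38 were higher in cKO mice (11 alpha, 10 beta and 17 gamma genes), where 16.7% of all genes tested were, and 0 were lower, where 13.7% were. DESeq2, the tool the study used, called 29 of 56 genes higher on the same libraries, where 7.41% of all genes were called higher. These were 9 of 14 alpha, 5 of 21 beta and 15 of 21 gamma genes. DESeq2 called 0 members lower, where 3.04% of all genes were called lower, and 0 members were lower at an unadjusted p under 0.05 with either tool.

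The number of calls depended on which libraries were kept, among members and among all genes. Without B8, edgeR called 47 of 56 members higher (11 alpha, 16 beta and 20 gamma genes) where 23.7% of all genes were called higher, and 0 lower where 23.1% were. Without B8, DESeq2 also called 47 higher, where 20.6% of all genes were. Leaving out another library had the opposite effect on DESeq2. It called 22 members higher without A2 (2.63% of all genes), 13 without A6 (0.944%), 4 without B1 (0.638%) and 2 without B7 (0.33%). The last were Pcdhgc3 and Pcdhgb6, and Pcdhb19 and Pcdhga3 joined them without B1. Without A4 it called 0 members (0.051% of all genes), although 33 had an unadjusted p under 0.05 (6.36% of all genes). Without B9 it called 0 (0.27%), with 35 at an unadjusted p under 0.05 (7.58%). The DESeq2 median log2 fold changes of alpha, beta and gamma genes were 1.24, 0.42 and 1.06 without A4. They were 1.33, 0.40 and 1.065 without B9, and 1.40, 0.49 and 1.23 with all libraries. With limma-voom and sample quality weights, which gave B8 little weight, 48 of 56 members were called higher, where 24.2% of all genes were.

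The median log2 fold change over the tested genes was 1.40 for alpha, 1.22 for gamma and 0.49 for beta genes, beside 0.0025 for all genes tested. All 14 alpha and all 21 gamma genes had a log2 fold change above 0, as did 19 of 21 beta genes. These medians are a description and were not tested. Without B8 they were 1.68, 1.46 and 0.67. With the trend of GC content and exon length taken out of each library they were 1.21 for alpha, 1.20 for gamma and 0.39 for beta genes.

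**Figure D2:**
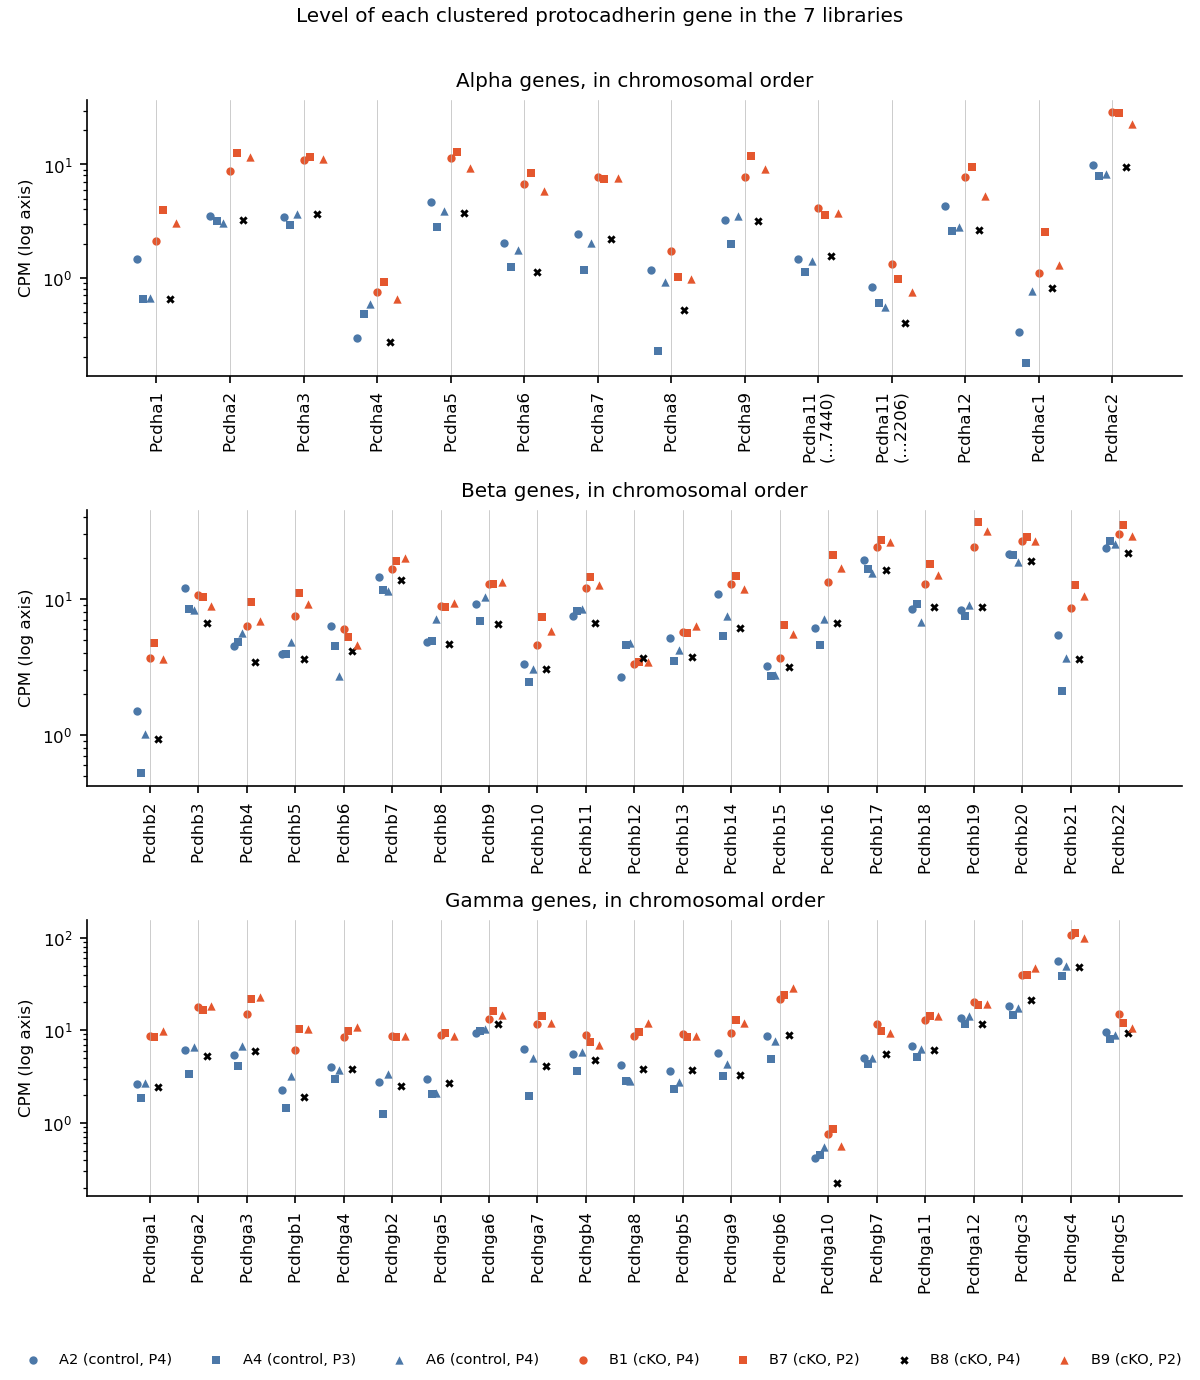
CPM (log axis) of each of the 56 tested genes in the 7 libraries, in chromosomal order within the alpha, beta and gamma clusters; blue marks are controls, orange marks are B1, B7 and B9, and the black cross is B8. In 51 of the genes the orange marks lie above all blue marks, and the black cross lies mostly among the blue ones.

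Gene by gene, B1, B7 and B9 were above every control in 51 of 56 members, and in 44 of these B8 was not, a pattern that 22.2% of all genes tested had. The 44 were 10 alpha, 18 beta and 16 gamma genes. Every cKO library lay above every control in 7 members (2 alpha and 5 gamma genes), where 6.03% of all genes tested did. In 0 members did every cKO library lie below every control, where 8.01% of all genes did. B8 lay below every control in 13 members (4 alpha, 7 beta and 2 gamma genes), where 21.6% of all genes did. Of the 21 tested beta genes 0 separated the groups, where 14% of all genes did in either direction. In controls against P2 cKO 18 did (67% of all genes), and without B8 18 did (56.2%). Fewer did without A2 (3, beside 28.8% of all genes), A6 (2, beside 23.5%) or A4 (1, beside 18.3%) and in P4 libraries only (1, beside 26.1%). The count was 0 in controls against P4 cKO (19.8% of all genes) and without B1 (16.2%), B7 (15.3%) or B9 (15.9%).

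The beta genes spanned a broad range of levels. Compared per kilobase of exon that is theirs alone, the 3 highest were Pcdhb20 at 5.74 ± 0.417, Pcdhb22 at 4.12 ± 0.236 and Pcdhb17 at 3.69 ± 0.441 CPM per kb in controls (SD, n = 3). Pcdhb7, earlier in the cluster, followed closely at 3.59 ± 0.476 CPM per kb (SD, n = 3). By the mean of all 7 libraries, the 3 lowest of the tested beta genes were Pcdhb2, Pcdhb14 and Pcdhb12, at 0.817, 1.14 and 1.22 CPM per kb. In controls alone the lowest was Pcdhb2 at 0.360 ± 0.172, followed by Pcdhb21 at 0.882 ± 0.390 and Pcdhb14 at 0.916 ± 0.323 CPM per kb (SD, n = 3), and Pcdhb12, at 1.32 ± 0.375 CPM per kb, was not among the lowest. Pcdhb7 and Pcdhb17 differed by less than the SD of either, while Pcdhb20 stood above Pcdhb22 and Pcdhb17 in every control. Across the 21 tested genes, level per kb and position in the cluster had a Spearman correlation of 0.35, over genes that share libraries and neighbouring promoters.

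The 3 most abundant beta genes had log2 fold changes below the beta median of 0.49, although over the 21 tested beta genes log2 fold change and level per kb had a Spearman correlation of only −0.19. Pcdhb22 was at 23.9, 26.8 and 25.4 CPM in controls A2, A4 and A6, and at 30.0, 35.3, 21.7 and 29.3 CPM in B1, B7, B8 and B9. B8 was the lowest of the 7 libraries and the other cKO mice were the highest, and the log2 fold change was 0.20 with a standard error of 0.174 (adjusted p = 0.444 from edgeR). Pcdhb20 was at 21.4, 21.2 and 18.7 CPM in controls and at 26.8, 28.6, 19.1 and 26.6 CPM in B1, B7, B8 and B9, with a log2 fold change of 0.31 (adjusted p = 0.230 from edgeR). Pcdhb17 was at 19.5, 16.7 and 15.4 CPM in controls and at 24.2, 27.1, 16.4 and 26.5 CPM in the cKO mice, with a log2 fold change of 0.46 (adjusted p = 0.1585 from edgeR). In both genes B8 was inside the range of the controls. Without B8, edgeR called Pcdhb20 (log2 fold change 0.42, adjusted p = 0.0147) and Pcdhb17 (0.59, adjusted p = 0.00347) higher, and Pcdhb22 missed the threshold (0.31, adjusted p = 0.0574). With the GC content and length correction the log2 fold changes of Pcdhb20, Pcdhb17 and Pcdhb22 were lower, at 0.21, 0.26 and −0.10.

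The beta genes of highest log2 fold change were Pcdhb2, Pcdhb19 and Pcdhb16, which had low to moderate levels in controls. Pcdhb19 was at 8.30, 7.52 and 9.02 CPM in the controls and at 24.1, 36.6 and 31.5 CPM in B1, B7 and B9. B8 held 8.74 CPM, inside the range of the controls. The log2 fold change of Pcdhb19 was 1.61 with a standard error of 0.407 (adjusted p = 0.138 from edgeR, 0.00552 from DESeq2), and without B8 it was 1.89 (adjusted p = 5.69e-05 from edgeR). Pcdhb2 was at 1.49, 0.525 and 1.02 CPM in controls, from 21 to 36 counts, and at 3.70, 4.75, 0.936 and 3.66 CPM in B1, B7, B8 and B9. Its control libraries were spread widely, and its log2 fold change was 1.72 with a standard error of 0.553 (adjusted p = 0.138 from edgeR, 0.0267 from DESeq2). Pcdhb16 was at 6.18, 4.60 and 7.16 CPM in controls and at 13.4, 21.2, 6.72 and 16.9 CPM in the cKO mice, with a log2 fold change of 1.29 (adjusted p = 0.0154 from DESeq2). DESeq2 also called Pcdhb18 and Pcdhb21, at log2 fold changes of 0.75 and 1.25, the former at an adjusted p of 0.0495.

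In Pcdhb12, Pcdhb3 and Pcdhb6, unlike the other 18 tested beta genes, B1, B7 and B9 were not all above every control. Pcdhb12 was at 2.70, 4.57 and 4.75 CPM in controls and at 3.35, 3.48, 3.69 and 3.46 CPM in the cKO mice. All 4 cKO values fell inside the range of the controls, and the log2 fold change was −0.20 with a standard error of 0.240 (adjusted p = 0.576 from edgeR). Pcdhb3 was at 12.03, 8.42 and 8.33 CPM in controls and at 10.8, 10.3, 6.70 and 8.88 CPM in B1, B7, B8 and B9, with a log2 fold change of −0.07 (adjusted p = 0.852 from edgeR). Pcdhb6 was at 6.39, 4.52 and 2.74 CPM in controls and at 6.05, 5.23, 4.19 and 4.60 CPM in the cKO mice, with a log2 fold change of 0.14 (adjusted p = 0.752 from edgeR). With 1 library left out, Pcdhb12 ranged from −0.42 (without A2) to −0.07 (without A6). The sign for Pcdhb3 turned to 0.05 without B8 and to 0.12 without A2, and that for Pcdhb6 to −0.12 without A6. Pcdhb14, among the lowest per kb, did follow the pattern of the other beta genes, at 10.95, 5.37 and 7.56 CPM in controls and 12.9, 14.8, 6.16 and 11.8 CPM in B1, B7, B8 and B9. Its log2 fold change was 0.53 (adjusted p = 0.281 from edgeR), and without B8 it was 0.73 (adjusted p = 0.0191 from edgeR). With the GC content and length correction it was only 0.03, and in controls against P4 cKO it was 0.26.

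The makeup of the beta counts differed accordingly between libraries. Pcdhb17, Pcdhb20 and Pcdhb22 together made up 35.3% to 40.2% of the beta CPM in controls and 36.8% in B8, but 29.1% to 31.7% in B1, B7 and B9. Pcdhb2, Pcdhb16, Pcdhb19 and Pcdhb21, grouped after their values were seen, made up 9.19% to 12.4% in controls, 12.9% in B8 and 19.5% to 24.0% in B1, B7 and B9. No test was run on these shares.

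Among the alpha genes, Pcdhac2 was by far the most abundant. This C-type gene, the last of the alpha cluster, is known from serotonergic neurons, where it is needed for the spacing of their axons. It was at 9.998, 7.89 and 8.25 CPM in controls and at 28.9, 28.7, 9.51 and 22.7 CPM in B1, B7, B8 and B9, so that B8 was inside the range of the controls and the others were above it. The log2 fold change was 1.37 with a standard error of 0.347 (adjusted p = 0.138 from edgeR, 0.00862 from DESeq2). The serotonergic markers Tph2, Slc6a4, Fev and Slc18a2 summed to 15.96 to 31.4 CPM in controls and 15.5 to 98.2 CPM in cKO mice, and the highest sum was that of B8, in which Pcdhac2 was at the level of controls. Their part in the level of Pcdhac2 was not tested.

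Pcdhac1, the other alpha C-type gene, was rare, at 0.332, 0.175 and 0.767 CPM in controls, from 7 to 21 counts, and at 1.10, 2.53, 0.813 and 1.30 CPM in B1, B7, B8 and B9. It had the highest log2 fold change of the alpha genes, 1.80 (standard error 0.581, adjusted p = 0.138 from edgeR, 0.0343 from DESeq2). All cKO libraries were above all controls (exact permutation test, two-sided p = 0.0571, the smallest that 3 libraries against 4 allow), although B8 exceeded A6 by little. The other alpha gene with separate groups was the Pcdha11 of identifier ENSMUSG00000007440.10.

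Of the alternate alpha genes, Pcdha3 and Pcdha7 had the lowest DESeq2 p-values. Pcdha3 was at 3.402, 2.90 and 3.65 CPM in controls and at 11.01, 11.7, 3.65 and 11.1 CPM in B1, B7, B8 and B9, with a log2 fold change of 1.50 (adjusted p = 0.138 from edgeR, 0.00756 from DESeq2). Pcdha7 was at 2.45, 1.17 and 2.01 CPM in controls and at 7.69, 7.42, 2.19 and 7.64 CPM in the cKO mice, with a log2 fold change of 1.75 (adjusted p = 0.00756 from DESeq2). B1, B7 and B9 lay close together in both genes, and B8 was inside the range of the controls. The lowest log2 fold change of the alpha genes was 0.37, for the Pcdha11 of identifier ENSMUSG00000102206.5, which was at 0.830, 0.5996 and 0.548 CPM in controls and at 1.32, 0.962, 0.394 and 0.741 CPM in the cKO mice (adjusted p = 0.585 from edgeR). Pcdha4 and Pcdha8 were similarly low, at 0.225 to 1.71 CPM, with log2 fold changes of 0.51 and 0.47. These 3 genes were those that edgeR did not call without B8, where Pcdha1, Pcdha2, Pcdha3, Pcdha5, Pcdha6, Pcdha7, Pcdha9, Pcdha12, Pcdhac1, Pcdhac2 and the Pcdha11 of identifier ENSMUSG00000007440.10 were called.

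The highest level of all clustered protocadherins was that of a gamma C-type gene. Pcdhgc4, the isoform tied to neuronal survival, was at 13.7 ± 2.53 CPM per kb of unshared exon in controls (SD, n = 3) and 26.5 ± 8.59 CPM per kb in cKO mice (SD, n = 4). In CPM it was at 55.6, 38.3 and 49.4 in controls and at 108, 114, 48.2 and 98.7 in the cKO mice, with 1341 or more counts in every library. Its log2 fold change was 0.95 with a standard error of 0.279 (adjusted p = 0.138 from edgeR, 0.0293 from DESeq2). Pcdhgc3, the next most abundant in controls among the gamma genes and known for a role in dendrite arborization, was at 18.1, 14.5 and 17.5 CPM in controls and at 39.2, 39.9, 21.3 and 47.0 CPM in B1, B7, B8 and B9. Here B8 was above all controls, though well under the other cKO mice, and the log2 fold change was 1.14 with a standard error of 0.251 (adjusted p = 0.138 from edgeR, 0.00513 from DESeq2). Pcdhgc5, the last gene of the cluster and one whose use rises as neurons mature, was at 9.58, 8.09 and 8.87 CPM in controls and at 14.8, 11.8, 9.29 and 10.5 CPM in the cKO mice. Its log2 fold change was 0.39 with a standard error of 0.195 (adjusted p = 0.198 from edgeR), and B1, a P4 mouse, was its highest library.

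The alternate gamma genes called by DESeq2 were headed by Pcdhgb6, at 8.71, 4.92 and 7.56 CPM in controls and 22.0, 23.9, 8.82 and 28.6 CPM in B1, B7, B8 and B9. Its log2 fold change was 1.57 with a standard error of 0.376 (adjusted p = 0.138 from edgeR, 0.00424 from DESeq2), and B8 was just above the highest control. Pcdhga5 was at 2.95, 2.05 and 2.12 CPM in controls and at 8.90, 9.34, 2.71 and 8.57 CPM in the cKO mice (log2 fold change 1.65, adjusted p = 0.00579 from DESeq2). Pcdhgb5, with the largest unshared part of the gamma genes, was at 3.65, 2.32 and 2.74 CPM in controls and at 9.19, 8.44, 3.74 and 8.71 CPM in the cKO mice (1.38, adjusted p = 0.00716 from DESeq2). In Pcdhga5 and Pcdhgb5, B1, B7 and B9 lay close together. In these genes and in Pcdhgb6, B8 lay at or near the controls. Pcdhga3, near the start of the cluster, was at 5.39, 4.07 and 6.76 CPM in controls and at 14.99, 21.7, 5.94 and 23.1 CPM in the cKO mice (1.61, adjusted p = 0.00794 from DESeq2). Pcdhga1, the first gamma gene, was at 2.61, 1.87 and 2.67 CPM in controls and at 8.69, 8.51, 2.46 and 9.76 CPM in the cKO mice (1.63, adjusted p = 0.00904 from DESeq2). B8 was inside the range of the controls in both. Pcdhgb1 had the highest log2 fold change of the gamma genes, 1.65 (standard error 0.537, adjusted p = 0.0239 from DESeq2). It was at 2.24, 1.45 and 3.21 CPM in controls and at 6.16, 10.3, 1.92 and 10.3 CPM in B1, B7, B8 and B9.

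Not all gamma genes differed to that degree. Pcdhga10 was nearly silent, at 0.415, 0.450 and 0.548 CPM in controls and 0.748, 0.854, 0.222 and 0.564 CPM in the cKO mice, from 9 to 55 counts. Its log2 fold change of 0.34 was the lowest of the gamma genes (standard error 0.494, adjusted p = 0.645 from edgeR). Pcdhgb8, which lies in the middle of the cluster but is annotated as a polymorphic pseudogene and was not among the 57 genes, was at 3.92 to 5.10 CPM in controls and 3.28 to 5.86 CPM in cKO mice, with a log2 fold change of 0.06 (adjusted p = 0.880 from edgeR). Its neighbour Pcdhga11 was at 5.10 to 6.76 CPM in controls and at 12.8, 14.2, 6.13 and 14.1 CPM in B1, B7, B8 and B9 (log2 fold change 0.97). Across the 21 gamma genes, log2 fold change and position had a Spearman correlation of −0.69, so that genes early in the cluster had the higher values. In the alpha and beta clusters it was −0.16 over 14 and 0.10 over 21 genes. Genes of a cluster share libraries and, in gamma and alpha, constant exons.

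**Figure D3:**
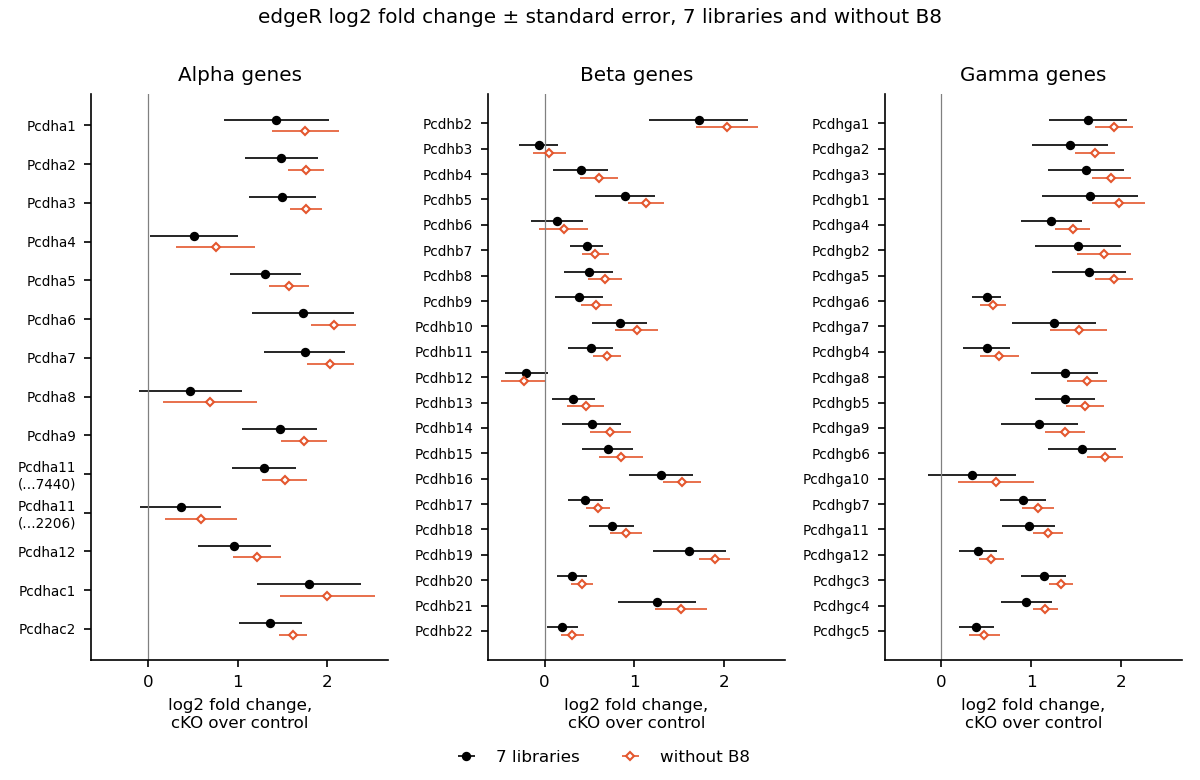
edgeR log2 fold change (cKO over control) of each tested gene with its standard error, from all 7 libraries (black circles) and without B8 (open orange diamonds), in chromosomal order from top to bottom. With all libraries 11 alpha and 15 gamma genes lie at 0.91 or above, 17 of 21 beta genes lie under 1, and without B8 the error bars are shorter for all genes except Pcdhb12.

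The balance among the families also differed between libraries. Alpha genes made up 8.54% to 9.77% of the clustered CPM in controls and 9.39% in B8, but 14.0%, 14.2% and 12.3% in B1, B7 and B9. Beta genes made up 45.5% to 50.8% in controls and 43.7% in B8, and 35.5% to 38.5% in B1, B7 and B9. The gamma share was 40.6% to 45.5% in controls, and in cKO mice it was 46.9% to 50.8%. The shares of B8 for alpha genes were inside the range of controls, and those for beta and gamma genes lay between the controls and the other cKO mice. The shares were not tested.

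**Figure D4:**
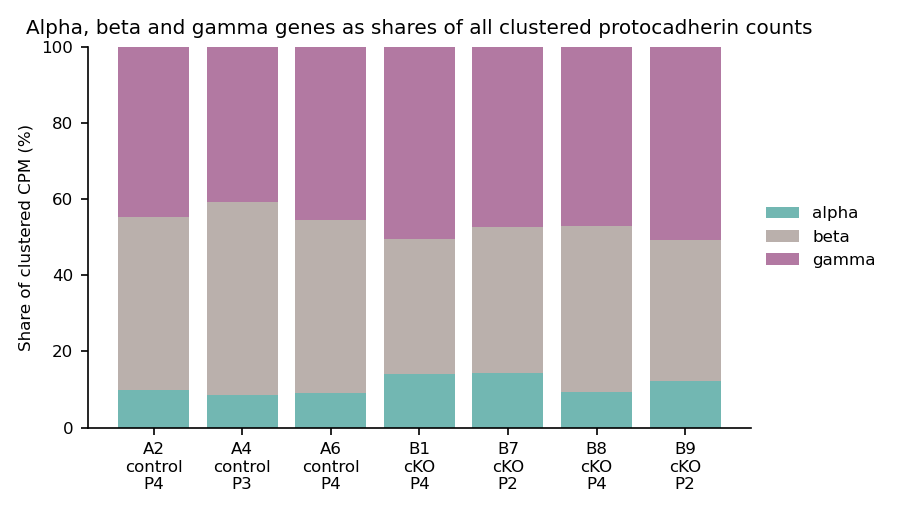
Alpha, beta and gamma genes as percentages of the summed CPM of all clustered protocadherins in each library. Beta genes take the largest part in control libraries A2 and A4 and equal the gamma genes in A6 (4623 counts each), and gamma genes take the largest part in 4 of 4 cKO libraries.

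Age was not balanced between the groups. Against the P2 cKO libraries B7 and B9 alone, edgeR called 45 of 56 members higher (11 alpha, 16 beta and 18 gamma genes), where 22.9% of all genes were. The median log2 fold changes were then 1.66 for alpha, 1.53 for gamma and 0.70 for beta genes. Against the P4 cKO libraries B1 and B8 alone, 0 members were called by edgeR, 13 were higher at an unadjusted p under 0.05, where 2.72% of all genes were, and the medians were 0.95, 0.82 and 0.25. Among P4 libraries only, A2 and A6 against B1 and B8, the medians were 0.79, 0.68 and 0.20 with 0 members called by edgeR and 1, Pcdhgc3, higher at an unadjusted p under 0.05 (0.744% of all genes). The P4 library B1 lay with the P2 libraries, with median log2 differences from the control mean of 1.47 for alpha, 1.25 for gamma and 0.56 for beta genes, while the P4 library B8 was at 0.01, 0.07 and −0.07. With age as a covariate the medians were 1.15, 0.98 and 0.36, and edgeR called 0 members, with 25 higher at an unadjusted p under 0.05, where 9% of all genes were. Age and genotype cannot be told apart for B7 and B9.

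The genes known to act in promoter choice and chromatin looping were measured in the same libraries. Of the 26 tested, edgeR called 0, with 15 higher at an unadjusted p under 0.05 (16.7% of all genes), and DESeq2 called 7 higher (7.41% of all genes) and 0 lower (3.04%). Without B8, edgeR called 22 higher, where 23.7% of all genes were, and 2 lower, Trim28 and Ehmt2, where 23.1% were, and the median log2 fold change of the list with all libraries was 0.49. Ctcf, which encodes the factor that anchors the loops, was at 78.7 to 82.1 CPM in controls and at 88.0, 114, 76.7 and 124 CPM in B1, B7, B8 and B9 (log2 fold change 0.32, adjusted p = 0.235 from edgeR). Smchd1, a repressor of clustered protocadherin promoters, was at 37.4 to 46.4 CPM in controls and at 72.4, 92.4, 42.8 and 97.7 CPM (0.85, adjusted p = 0.0357 from DESeq2). The cohesin loader Nipbl was at 54.1 to 62.5 CPM in controls and at 102, 155, 53.6 and 153.5 CPM (1.02, adjusted p = 0.0331 from DESeq2). Dnmt3b, the methyltransferase that acts on these promoters in the embryo, was at 2.95 to 3.65 CPM in controls and at 3.25 to 4.56 CPM in cKO mice (0.32, adjusted p = 0.328 from edgeR). In all 4 genes B8 lay inside the range of the controls or below it, while B1, B7 and B9 lay above.

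The nonclustered protocadherins and large cadherins, each a gene outside the 3 clusters, were read in the same fits. DESeq2 called 9 of the 21 tested higher (7.41% of all genes) and 0 lower (3.04%). Without B8, edgeR called 17 higher (23.7% of all genes) and 0 lower (23.1%), and with all libraries edgeR called 0, with 15 higher at an unadjusted p under 0.05 (16.7%). The median log2 fold change was 0.59, beside 1.40 for alpha, 1.22 for gamma and 0.49 for beta genes. Pcdh10, an adhesion protein of the delta group, was at 253.5 to 302 CPM in controls and at 453, 515, 251 and 425 CPM in B1, B7, B8 and B9 (log2 fold change 0.56, adjusted p = 0.0901 from DESeq2). Fat1, a very large cadherin, was at 79.6 to 92.7 CPM in controls and at 217, 286, 94.1 and 277 CPM (1.31, adjusted p = 0.00806 from DESeq2). Of 28 protein partners and signalling genes, such as the WAVE complex, the kinases Ptk2 and Fyn, and gamma-secretase, DESeq2 called 0 higher (7.41% of all genes) and 1 lower (3.04%). The gene called lower was the gamma-secretase subunit gene Psenen (−1.03, adjusted p = 0.0233). With all libraries edgeR called 0 of the 28. At an unadjusted p under 0.05, 9 were higher (16.7% of all genes) and 2 lower (13.7%). Without B8, edgeR called 12 of the 28 higher, where 23.7% of all genes were, and 5 lower (Brk1, Psen2, Psenen, Rhoa and Pdcd10), where 23.1% were.

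Genes near the clusters were read in the same way. The annotation has 70 other genes within 500 kb of the clusters, of which 65 were in the count files and 44 were tested, with a median log2 fold change of −0.15. They include Pcdh1 and Pcdh12, which are also in the nonclustered list. DESeq2 called 1 higher, the low-level Gm37446 (log2 fold change 2.06, adjusted p = 0.0319), and 1 lower, Ndufa2, beside 7.41% and 3.04% of all genes. Without B8, edgeR called 6 of 42 higher and 13 lower, beside 23.7% and 23.1% of all genes. Taf7, a single-exon gene for a TFIID subunit between the beta and gamma genes, was at 16.6 to 18.5 CPM in controls and at 20.9, 22.2, 17.8 and 23.1 CPM in B1, B7, B8 and B9 (log2 fold change 0.28, adjusted p = 0.211 from edgeR). Ndufa2, a subunit gene of respiratory complex I, was at 53.4, 72.05 and 53.4 CPM in controls and 23.3, 12.3, 49.2 and 14.2 CPM in the cKO mice (−1.27, adjusted p = 0.0341 from DESeq2). The read-through genes Gm37013, Gm37388, Gm38182 and Gm42416, annotated over the alpha or gamma genes, had 0 counts in every library.

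Markers of other cell types were read beside the clustered genes. The 8 neuron markers summed to 7119 to 8080 CPM in controls and 6567 to 7345 CPM in cKO mice, with 7021 CPM in B8. The 6 markers of astrocytes and radial glia summed to 1947 to 2230 CPM in controls and 1243 to 1983 CPM in cKO mice, with the highest cKO value in B8. The oligodendrocyte lineage was at 374 to 429 CPM against 319 to 443 CPM, microglia at 71.98 to 81.6 against 65.6 to 76.4 CPM, endothelium at 123 to 196 against 129.5 to 179 CPM, and dividing cells at 42.7 to 58.9 against 46.7 to 84.4 CPM. Meninges were at 175 to 395 against 215.5 to 406 CPM and the choroid plexus at 3.73 to 5.32 against 4.49 to 5.42 CPM. Red blood cell genes were at 132 to 496 CPM in controls and 57.7 to 179 CPM in cKO mice, again highest in B8 among the latter. With all libraries, edgeR called 0 genes of any of these lists (0.00458% of all genes in either direction). At an unadjusted p under 0.05, 0 to 4 genes per list passed in 1 direction, beside 16.7% of all genes higher and 13.7% lower. The 4 were neuron markers lower in cKO mice, out of 8, and 1 neuron marker was higher. DESeq2 called Map2 (neurons), Pdgfra (oligodendrocyte lineage) and Mki67 (dividing cells) higher, at log2 fold changes of 0.81, 0.77 and 0.87 in that test, and 0 of these markers lower, beside 7.41% and 3.04% of all genes. Without B8, where 47 clustered genes were called, edgeR also called markers, beside 23.7% of all genes higher and 23.1% lower. It called 2 of 8 neuron markers higher and 4 lower, 2 of 6 astrocyte and radial glia markers higher and 2 lower, and 1 of 7 oligodendrocyte lineage markers higher and 3 lower. Of 5 markers each, it called 2 of endothelium higher and 1 lower, 1 of dividing cells higher and 1 lower, 2 of microglia lower and 3 of red blood cells lower, and it called 0 of meninges or choroid plexus. The neuron markers called lower were Tubb3, Rbfox3, Stmn2 and Elavl3, and those called higher were Map2 and Syt1. Of the 9 dorsal midbrain markers, DESeq2 called Tfap2d higher, and without B8 edgeR called Pax7, Tfap2b and Tfap2d higher and Gata3 lower. Tfap2d, a transcription factor gene, was at 8.13, 5.50 and 8.29 CPM in controls and at 19.8, 27.2, 6.09 and 30.0 CPM in B1, B7, B8 and B9 (log2 fold change 1.52, adjusted p = 0.138 from edgeR, 0.0173 from DESeq2), so that B8 lay inside the range of the controls and the other cKO mice above it. Of the genes in these lists, 0 were at 0 in every library. Their part in the levels of the clustered protocadherins was not tested.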

How the data were processed

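RNA-seq of the dorsal midbrain was available for 3 control and 4 Brn3b cKO mice. After trimming, the authors mapped the reads to the GRCm38.p5 genome (TopHat2, Bowtie 2) and used HTSeq to count them over GENCODE vM15 genes. What they deposited are raw counts, in a file for each library. The strand and overlap options of HTSeq are not given in the sources used here. Entries that name no gene were left out of library sizes and made up 30.98% to 38.18% of all read pairs. Positions, exons and symbols came from GENCODE vM21 of the same build. Of the 52636 identifiers, 147 had no match. Depth was 23588248 to 87572085 counts on genes.

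Counts were tested in R 4.3.3 with edgeR 4.0.16 (filterByExpr with minimum count 10 and minimum total 15, TMM, glmQLFit, glmQLFTest with genotype as the only term, Benjamini-Hochberg adjustment over all 21817 genes tested, threshold 0.05). The standard error was derived from the coefficient and the F statistic. DESeq2 1.42.0 with its default independent filtering at 0.1 and limma-voom with sample quality weights (limma 3.58.1) were alternatives, as were RLE factors, a lower filter (1 count in any library) and a stricter one (10 in every library), age as a covariate, subsets by age, thinned counts, a per-library trend of GC content and exon length (mgcv 1.9.3) and leaving out each library. Single genes were compared by an exact permutation test of log2 CPM (prior count 2) over all 35 assignments of libraries to groups. Levels per kb divide CPM by the exon bases of a gene that no exon of another annotated gene on the same strand covers. This assumes that reads on shared exons were not counted for any single gene, which the sources used here do not state, and it matters most for alpha and gamma genes. The tests were checked on simulated counts in which 200 genes had known changes. Of these edgeR recovered 146, DESeq2 158 and limma-voom 141, and they called 3, 16 and 4 unchanged genes. All simulated libraries of a group had the same gene means, and none stood apart as B8 did. The check therefore cannot decide how far the calls that changed with B8 can be relied on. Counts of every library pair within a group differed beyond sampling noise (chi-square per degree of freedom 7.72 to 218), so no library was treated as a second deposit of another. This check does not show that the libraries are independent, and each labelled mouse was counted as 1 sample.

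The members, gene lists and tests were chosen with earlier results of these data known. The genes given in every library follow a rule: the target; the 3 beta genes highest and lowest in level per kb and in log2 fold change; the C-type genes; up to 10 members by DESeq2 adjusted p; and the extremes of the alpha and gamma genes. Pcdha4, Pcdha8, Pcdhb7, Pcdhb18, Pcdhb21, Pcdhga11, Pcdhgb8 and the genes named from the lists were added after their values were seen.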

Additional observations from a re-analysis of the deposited data

Results flagged for a closer look

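The CPM values of the 25 genes given in every library, and the median of each family, were examined for 1 cKO library far from the other 3, which gave 28 results, and 4 stood out by Dixon's criterion, which divides a library's gap to its neighbour by the range. Chance gives about 1 in 20 groups, but that rate does not apply here, since all 4 genes were among those chosen for a low DESeq2 p-value in these libraries and B8 was already known to stand apart. The values are a description. In all 4 the library was B8. Pcdhga5 was at 2.71 CPM in B8, against 8.57 to 9.34 CPM in B1, B7 and B9 and 2.05 to 2.95 CPM in controls. Pcdhgb5 was at 3.74 CPM in B8, against 8.44 to 9.19 CPM in the other cKO mice and 2.32 to 3.65 CPM in controls. Pcdha3 was at 3.65 CPM in B8, against 11.01 to 11.7 CPM and 2.90 to 3.65 CPM. Pcdha7 was at 2.19 CPM in B8, against 7.42 to 7.69 CPM and 1.17 to 2.45 CPM. The genes share libraries and constant exons, so they are not independent. B8 held Brn3b at 10.6 CPM, beside 9.65 to 11.6 CPM in the other cKO mice and 45.8 to 47.4 CPM in controls. The cause was not tested.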

How the results depend on the processing

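No paired analysis was possible because no mouse number occurs in both genotypes. The DESeq2 fits without single libraries were chosen after seeing the data, and the cause of a change was not tested unless stated. edgeR called 0 members under RLE factors, both filters, age as a covariate, P4 libraries only, controls against P4 cKO, the GC content and length correction and thinned counts. In each of these runs it called 0 of all genes tested higher and at most 1 lower. The counts of beta, alpha and gamma genes called higher were 5, 9 and 15 with DESeq2 (7.41% of all genes), 16, 11 and 18 in controls against P2 cKO (22.9%), and 17, 11 and 20 with limma-voom (24.2%). Leaving out each library with edgeR gave 0 to 16 beta, 0 to 11 alpha and 0 to 20 gamma genes, with calls only without B8 (23.7% of all genes higher). DESeq2 called 4, 7 and 11 without A2 (2.63% of all genes higher), 2, 4 and 7 without A6 (0.944%) and 1, 0 and 3 without B1 (0.638%). It called 0, 0 and 2 without B7 (0.33%), 16, 11 and 20 without B8 (20.6%), and 0 without A4 (0.051%) or B9 (0.27%). The number of beta genes whose groups do not overlap was 0 with all libraries, 1 in P4 libraries only (26.1% of all genes in either direction), 18 in controls against P2 cKO (67%), 18 without B8 (56.2%) and 0 to 3 without another library (15.3% to 28.8%). The median log2 fold changes stayed above 0 in every alternative run. They ranged from 0.79 in P4 libraries only to 1.69 without B8 with DESeq2 for alpha, from 0.20 to 0.70 for beta and from 0.68 to 1.53 for gamma genes. With all beta counts added per library, the log2 ratio of the group means was 0.55. The smaller values of the P4 comparisons rest on 2 cKO libraries, B1 and B8.

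Over the 25 genes given in every library, 370 of 448 alternative values kept direction and call, 72 kept direction and passed the threshold, and 6 changed sign: Pcdhb22 to −0.10 with the GC content and length correction, Pcdhga10 to −0.035 in P4 libraries only, Pcdhb3 to 0.048 with limma-voom and 0.054 without B8 and to 0.12 without A2, and Pcdhb6 to −0.12 without A6. With 1 library left out, Pcdhb3 ranged from −0.16 to 0.12 and Pcdhb6 from −0.12 to 0.45. At 7 to 24 counts per control library, Pcdhga10, Pcdhac1 and the Pcdha11 of identifier ENSMUSG00000102206.5 were measured with a large counting error, and with at least 10 counts required in every library, 52 members were tested.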
